A study of Arabidopsis thaliana with 18 samples.

Results

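The 10 genes described here carry phosphate into and through the Arabidopsis root or set how much of it is taken up. They were chosen by locus, as a list, and are PHT1;1, PHT1;4, PHT1;5, SPX1, SPX3, IPS1, AT4, PHO1;H1, PHO1 and PHO2, 10 of the 33602 loci in the deposited tables. All 10 had a mean of at least 1 FPKM (fragments scaled to transcript length and to library size) over the 18 libraries, the level that 19484 loci reached and that was required for testing. The libraries were made from roots of wild-type (WT) Arabidopsis thaliana seedlings after 14 days on agar plates. The 6 groups of 3 libraries were a control, whose plates held the solvent DMSO, and plates with bisphenol A (BPA) or an analog, BPB, BPE, BPF or BPS. BPA joins its phenol rings through an isopropylidene bridge, BPB through a butylidene, BPE through an ethylidene, BPF through a methylene and BPS through a sulfonyl bridge. The labels name 3 doses, 1, 3 and 10 mg/L, and tie none of them to a library, so differences between compounds are not known to be at matched doses. They also do not say whether the 3 libraries of a group came from separate plates, so p-values measure the spread between libraries, which may be technical.

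Plants take up phosphate through PHT1 carriers in the plasma membrane of root epidermis and root hairs, and PHO1 exports it from stele cells into the xylem for the shoot. When phosphate runs short, the transcription factor PHR1 binds a promoter motif called P1BS and switches on carriers, SPX genes, lipid-remodelling enzymes and the microRNA miR399. MiR399 lowers the transcript of PHO2, a ubiquitin-conjugating enzyme that removes PHT1 and PHO1 proteins, and the RNAs IPS1 and AT4 bind miR399 without being cut and so spare PHO2. SPX proteins hold PHR1 back while phosphate is ample, and SPX1 and SPX3 are themselves strongly induced by shortage, which makes them common readouts of phosphate status.

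The microRNA and its sites are shown because they tie 3 of the 10 genes together. The mature miR399 forms were read from the reference genome (TAIR10.1, RefSeq annotation) with bases 2 to 8, the seed, in capitals. The 6 forms from the main arm share the seed, as these 3 show, and miR827 has another.
ath-miR399a: tGCCAAAGgagatttgccctg
ath-miR399b: tGCCAAAGgagagttgccctg
ath-miR399f: tGCCAAAGgagatttgcccgg
ath-miR827: tTAGATGAccatcaacaaact
The transcripts of PHO2, IPS1 and AT4, and no others, were searched for the miR399 complement with up to 4 mismatches. PHO2 held 5 matches of 21 bases in its 5′ UTR, each with 2 mismatches and no bulge. IPS1 and AT4 each held 1 match, of 24 bases, in which 3 transcript bases have no partner between miRNA positions 10 and 11. Capitals mark bases of the bulge and bases that differ from the exact complement of the closest miR399 form. A T opposite a G was counted as a mismatch, although such bases can pair in RNA.
PHO2, chr2:14281884-14281904, minus strand: TTgggcaaatctcctttggca
IPS1, chr3:3051224-3051247, plus strand: TTgggcaactTCTAtcctttggca
AT4, chr5:895149-895172, plus strand: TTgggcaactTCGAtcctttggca
The block of capitals in the middle of IPS1 and AT4 holds the bulge. RefSeq annotates both stretches within a short coding frame, although IPS1 and AT4 are known for acting as RNA.

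Upstream of the genes, P1BS was searched as GNATATNC, which reads the same on both strands and was the 1 motif searched. In the 500 bases before the gene start it was found for 3 of the 10 genes, against 10.6% of the 27997 loci with such a window. In 1000 bases it was found for 7 of 10 against 20.1%, and in 250 bases for 2 of 10 against 5.44%. SPX3 held 2 copies, PHT1;5 and AT4 1 each within 500 bases. The copies are shown with 16 bases on either side and the motif in capitals.
SPX3, chr2:18606181-18606220, plus strand: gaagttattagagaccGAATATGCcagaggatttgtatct
SPX3, chr2:18606304-18606343, plus strand: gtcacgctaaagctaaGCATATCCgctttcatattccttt
AT4, chr5:894540-894579, plus strand: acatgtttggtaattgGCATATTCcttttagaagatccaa
PHT1;5, chr2:13930215-13930254, minus strand: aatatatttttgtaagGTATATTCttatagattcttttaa
These matches describe the letters only. Within 1000 bases, PHT1;4, PHO1;H1 and PHO1 held none.

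Fragment totals recovered from the steps between low values ran from 15.9 M to 22.2 M per library, and 22971 to 24256 loci had a value above 0. At that depth 7 of the 10 genes rested on at least 113 fragments in every library. The exceptions were PHT1;5, with as few as 5 fragments in BPE replicate 2, SPX3, with 3 in BPB replicate 2, and IPS1, with 27 in BPE replicate 1. These numbers bear on counting error alone, since copies made in PCR were not marked by molecular identifiers. The third replicates of BPA and BPB stood apart from their group mates for most of the 10 genes. Over all tested genes their mean absolute log2 difference from each mate, averaged over the mates, was 0.408 and 0.461, against 0.218 to 0.414 in the other 16 libraries. By that measure BPB replicate 3 lay above the others and BPA replicate 3 lay within their range, below BPS replicate 3 (0.414). In both, 8 of the 10 genes lay above both mates, with a median ratio to the mates' mean of 6.18 in BPA and 4.44 in BPB. SPX3 was the widest case, at 10.5 times its mates in BPA replicate 3 and 17.4 times in BPB replicate 3, while PHO1 and PHO2 lay between 0.901 and 1.06 times theirs. Other libraries lay below both mates: BPS replicate 1 for 10 genes (median ratio 0.614), BPB replicate 2 for 9 (0.211) and BPA replicate 2 for 8 (0.174). Results are given with all 18 libraries and without BPA replicate 3 and BPB replicate 3, a choice made after seeing most of these 10 genes read high there. The low libraries were kept. Leaving the high ones out lowers the BPA and BPB means of most of these genes by construction. It also changes the spread that all comparisons share. Lower calls in BPA and BPB from that fit are therefore descriptive and are not separate support for a fall. Tissue markers also moved between groups: of 10 photosynthetic shoot genes, 8 were higher than control in BPA, 10 in BPB, 8 in BPE, 0 in BPF and 9 in BPS. Of all tested genes 6.57%, 25.5%, 9.08%, 0.708% and 12.3% were called higher in these compounds. Of 8 root hair genes, 3, 6, 5, 1 and 1 were lower, beside 3.83%, 11.1%, 5.2%, 0.677% and 8.71% of all tested genes. The summed levels of the markers are given beside the results they touch. Because these are bulk roots, fewer cells of a type and less RNA per cell cannot be told apart.

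**Figure D1:**
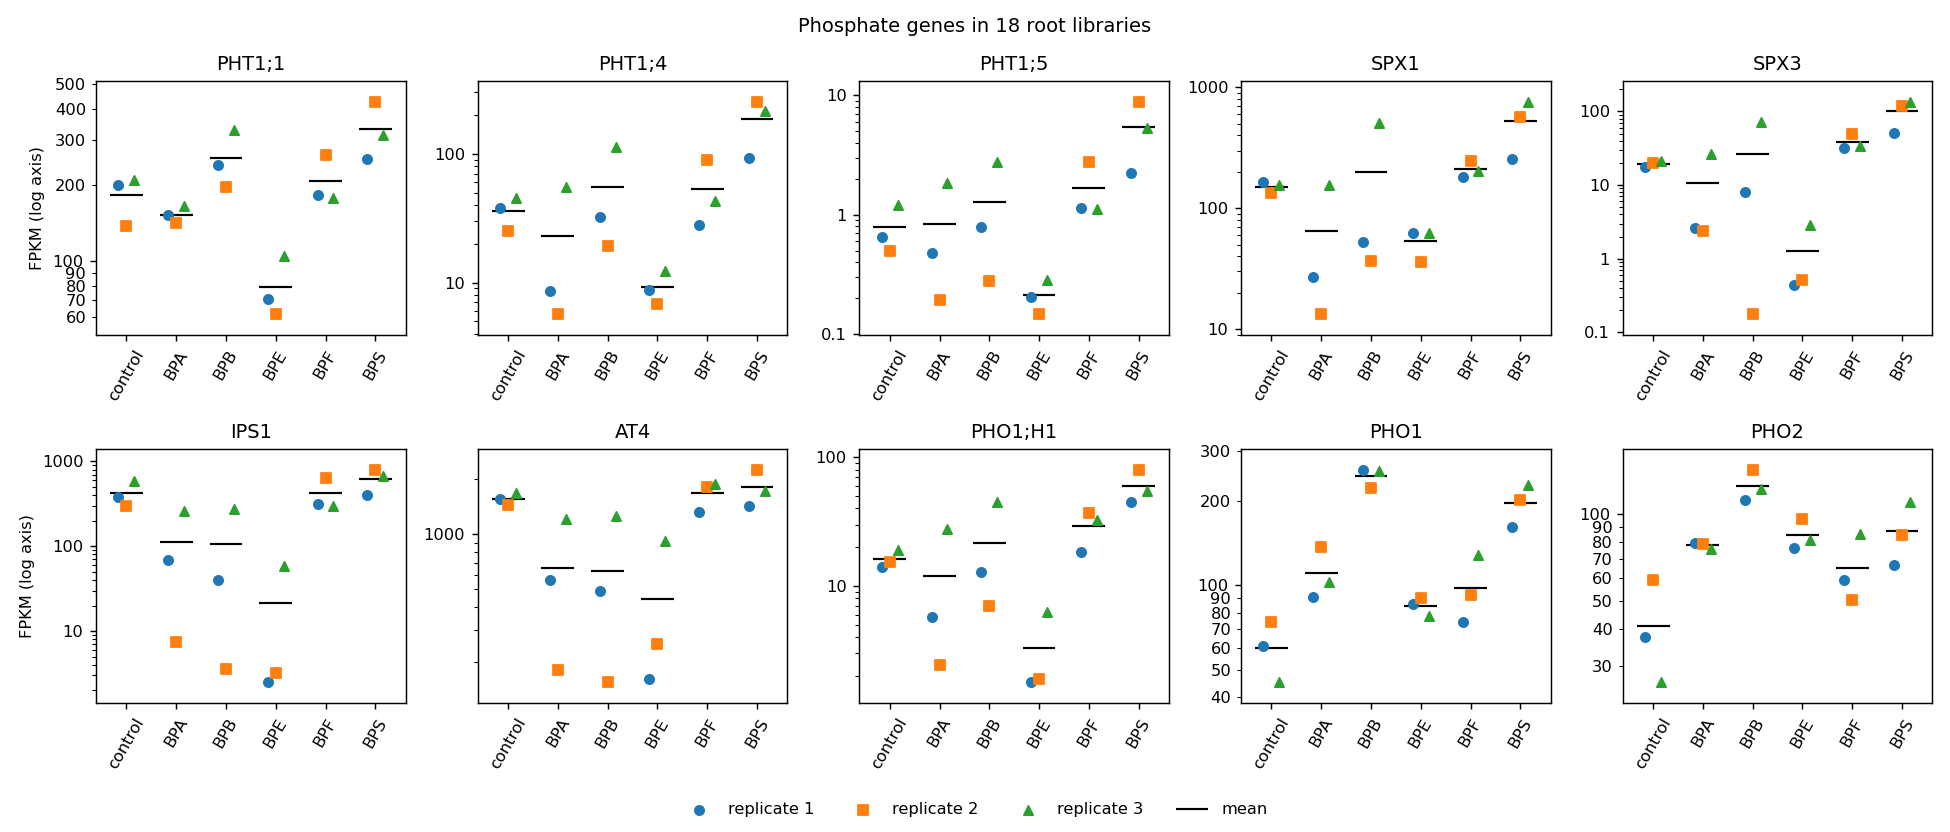
Level of each of the 10 phosphate genes in FPKM, on a log axis, in the 3 libraries of each group; circles, squares and triangles are replicates 1, 2 and 3 and the black bar is their mean. In BPA and BPB the triangle lies above the other symbols for all genes but PHO1 and PHO2, and BPS is the highest group for 8 genes.

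Tested with limma on log2(FPKM + 1) over all 18 libraries and called at an adjusted p below 0.05, the 10 genes differed in what they did under each compound. BPS had 5 genes higher and 0 lower, where 21% of all tested genes were called (12.3% higher, 8.71% lower). BPE had 1 higher and 3 lower, where 14.3% were called (9.08% higher, 5.2% lower). BPA had 2 higher and 0 lower, where 10.4% were called (6.57% higher, 3.83% lower). BPB had 2 higher and 0 lower, where 36.6% were called (25.5% higher, 11.1% lower). The genes were PHO1 and PHO2 in both. BPF had 0 called where 1.39% of all genes were (0.708% higher, 0.677% lower). PHO1 and PHO2 had an unadjusted p below 0.05 in BPF, a threshold for which no share of all genes is given here. The median log2 change of the 10 genes was −1.10 in BPA, 0.12 in BPB, −1.68 in BPE, 0.51 in BPF and 1.69 in BPS, beside 0.04, 0.16, 0.04, 0.01 and 0.09 over all tested genes. Single libraries moved these counts, and the share of all genes called with them. Leaving out a control or BPE library took BPE to 0 (control replicate 3 or BPE replicate 2), 1 (control replicate 1) or 2 (BPE replicate 1), where 2.3% to 4.98% of all genes were called, and leaving out BPA replicate 3 took it to 7 (17.6%). BPS fell to 2 without BPS replicate 2 (14.3%) and to 3 without control replicate 1, control replicate 2 or BPS replicate 3 (11.8% to 16.5%). BPA fell to 0 without control replicate 1, control replicate 3 or BPA replicate 2 (1.26% to 2.92%), was 1 without BPA replicate 1 (8.35%) and 4 without BPA replicate 3 (10.8%), and BPB was 5 without BPB replicate 3 (38.2%). Once BPA replicate 3 and BPB replicate 3 were left out, the fit called 8 of the 10 genes in BPA (2 higher, 6 lower), 6 in BPB (2 higher, 4 lower), 8 in BPE (1 higher, 7 lower), 0 in BPF and 8 in BPS (8 higher). The lower calls in BPA and BPB follow in part from that choice, since most of these genes were high in the omitted libraries. The shares of all genes called then were 18.5% in BPA (9.55% higher, 8.96% lower), 41.5% in BPB (25.7% higher, 15.8% lower), 22.1% in BPE (12.1% higher, 10% lower), 4.29% in BPF and 26.8% in BPS (16.5% higher).

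**Figure D2:**
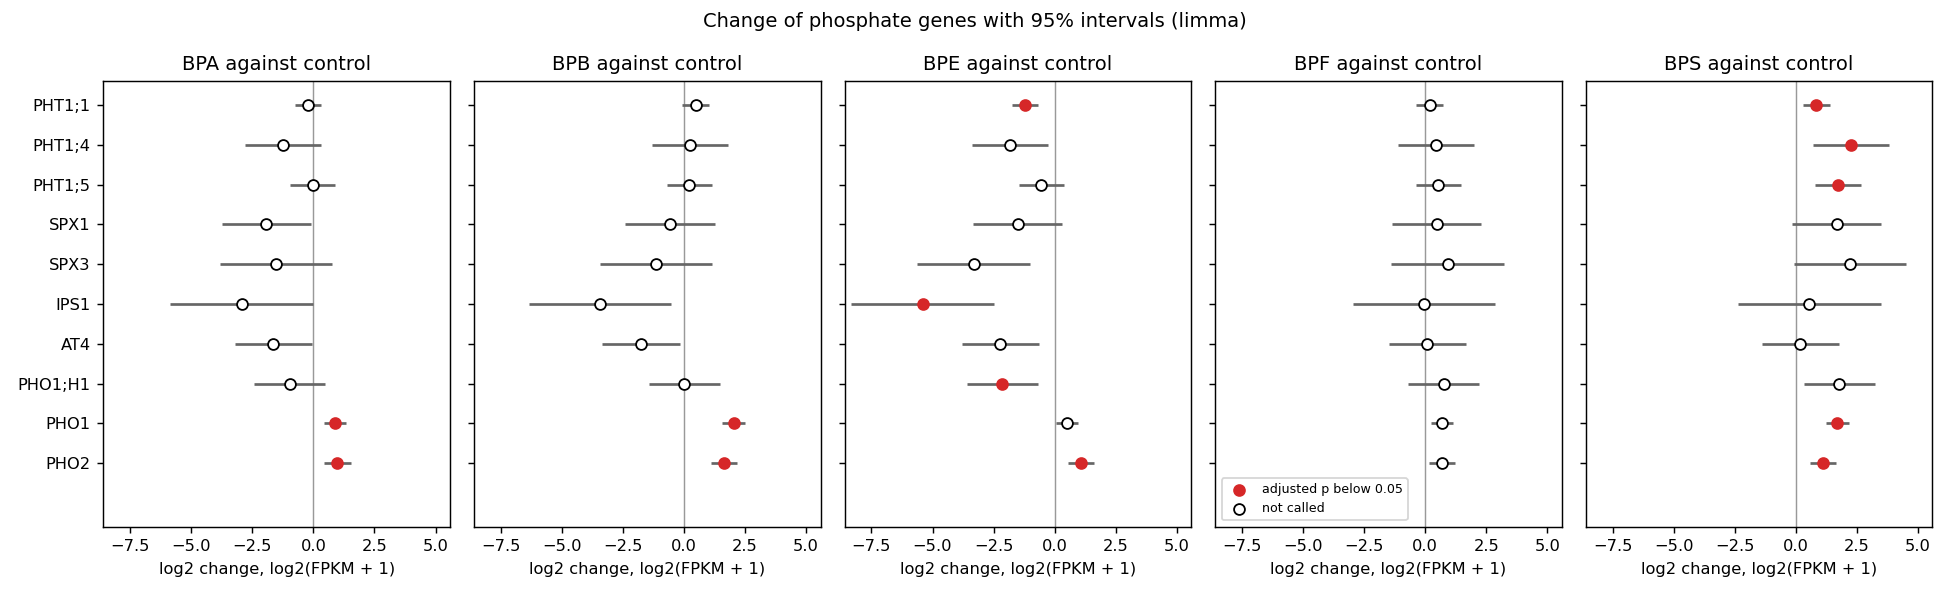
Change of each gene against control on the log2(FPKM + 1) scale, one panel per compound; points are limma estimates from 3 against 3 libraries, bars are 95% intervals, and filled points have an adjusted p below 0.05. PHO1 and PHO2 are to the right of 0 in every panel with short bars, while the other 8 genes lie left of 0 in BPE and right of 0 in BPS.

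The uptake carriers come first. PHT1;1 (AT5G43350, chr5:17399769-17402158), the most abundant PHT1 carrier here, fell in BPE and rose in BPS. It stood at 199.6, 137.7 and 209.9 FPKM in the controls, at 70.8, 61.9 and 105 FPKM in BPE and at 254, 424 and 315 FPKM in BPS. BPE lay wholly below and BPS wholly above the controls. The log2 change was −1.21 ± 0.25 (SE) in BPE with an adjusted p of 0.00964, and 0.85 ± 0.25 in BPS with an adjusted p of 0.0274 (limma). BPA gave 152, 142 and 165 FPKM, BPB 239, 197 and 328 FPKM, and BPF 183, 261 and 177 FPKM, each overlapping the controls. The BPE call was lost without control replicate 3 (adjusted p = 0.0594) or BPE replicate 2 (0.0529). The BPS call was lost without control replicate 1 (0.0530), control replicate 2 (0.119), BPS replicate 2 (0.118) or BPS replicate 3 (0.0565). The coding sequence of PHT1;1 is 97.7% identical to that of PHT1;2 and 89.5% to that of PHT1;3. Of the windows of 50 bases in PHT1;2, 53.9% occur unchanged in PHT1;1, so fragments could have been split between the copies. Summing the 3 copies gave a log2 change of −1.31 in BPE (adjusted p = 0.0113) and 0.94 in BPS (0.0289).

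PHT1;4 (AT2G38940, chr2:16257157-16260253) is a carrier that plants raise further when phosphate is short, and it rose 5.16-fold in mean FPKM in BPS. Its control libraries read 37.8, 25.2 and 45.2 FPKM and its BPS libraries 93.3, 252 and 213 FPKM, with no overlap. The log2 change was 2.25 ± 0.73 (SE), with an adjusted p of 0.0396. BPE was at 8.70, 6.86 and 12.3 FPKM, below every control, but the log2 change of −1.85 had an adjusted p of 0.0993 and was called without BPA replicate 3 (0.0395). In BPA, 8.54 and 5.71 FPKM stood beside 54.8 FPKM in replicate 3, and in BPB 32.0 and 19.2 FPKM stood beside 113 FPKM. The BPA change was −2.17 without BPA replicate 3 (adjusted p = 0.0435), and the sign in BPB turned from 0.23 to −0.48 without BPB replicate 3 (0.629). BPF ranged from 27.9 to 90.0 FPKM. The BPS call was lost on leaving out any control library (adjusted p = 0.0917, 0.120 and 0.0643 for replicates 1, 2 and 3), BPS replicate 2 (0.126), BPS replicate 3 (0.104) or BPE replicate 1 (0.0505).

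PHT1;5 (AT2G32830, chr2:13927606-13929763), known for moving phosphate between source and sink organs, had the lowest level of the 10 genes and rose in BPS. Control libraries were at 0.645, 0.499 and 1.21 FPKM and BPS libraries at 2.25, 8.73 and 5.30 FPKM. The groups did not overlap, and the log2 change was 1.73 ± 0.43 (SE; adjusted p = 0.0114), lost only without BPS replicate 2 (0.0583). The gene reached the filter of 1 FPKM only through BPS. Mean FPKM was 0.784 in control, 0.842 in BPA, 1.28 in BPB, 0.212 in BPE and 1.66 in BPF, against 5.42 in BPS. All 4 of its calls over the 15 comparisons involve BPS, the group that admitted it to testing, and are not independent of that filter. BPE, at 0.204, 0.148 and 0.284 FPKM, lay below every control, with a log2 change of −0.54 and an adjusted p of 0.416. BPA read 0.475, 0.195 and 1.86 FPKM, BPB 0.794, 0.281 and 2.76 FPKM, and BPF 1.14, 2.74 and 1.12 FPKM. Again the third replicate of BPA and of BPB was the high one. At these levels a pseudocount of 1 compresses the change, which was 6.92-fold between the BPS and control mean FPKM.

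The SPX genes, of the family that holds PHR1 back, spread widely between libraries of one group. SPX1 (AT5G20150, chr5:6802282-6803655) read 164, 133 and 154 FPKM in the controls, 62.6, 35.8 and 62.4 FPKM in BPE, and 258, 573 and 754 FPKM in BPS. BPE lay below and BPS above every control, but the log2 changes of −1.51 and 1.67 had adjusted p-values of 0.241 and 0.182 (limma). The fit pools its estimate of the spread over all groups, and BPA libraries were at 26.7, 13.4 and 155 FPKM and BPB libraries at 52.9, 36.9 and 510 FPKM. In a fit of BPE and control libraries alone the same change had an adjusted p of 0.00399, and in one of BPS and control libraries alone 0.0230. In BPA the change was called without BPA replicate 3 (−2.92, adjusted p = 0.0349). With BPA replicate 3 and BPB replicate 3 both left out, SPX1 was called lower in BPA, BPB (−1.74, adjusted p = 0.00385) and BPE (0.0104) and higher in BPS (0.00402). Leaving out BPB replicate 2 turned the BPB change from −0.57 to 0.14 (0.928). BPF, at 181, 247 and 204 FPKM, lay above every control, with a log2 change of 0.47 and an adjusted p of 0.827.

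SPX3 (AT2G45130, chr2:18606410-18607853) had the widest ratio between group means in FPKM, from 1.27 FPKM in BPE to 101 FPKM in BPS. Controls were tight, at 17.4, 19.7 and 21.0 FPKM, and BPE was at 0.443, 0.506 and 2.85 FPKM. The log2 change in BPE was −3.32 ± 1.08 (SE), with an adjusted p of 0.0519, and it was called without BPA replicate 3 (0.0350), BPB replicate 2 (0.0187) or BPB replicate 3 (0.0118). BPS, at 51.5, 119 and 134 FPKM, and BPF, at 31.9, 48.8 and 33.6 FPKM, both lay above every control, with adjusted p-values of 0.159 and 0.714. BPA libraries read 2.64, 2.40 and 26.5 FPKM. BPB spanned from 0.178 FPKM in replicate 2 through 8.02 FPKM in replicate 1 to 71.4 FPKM in replicate 3. No group of another gene spread as far in ratio. Without BPB replicate 3 the BPB change of −2.64 was called (adjusted p = 0.0271), and without BPB replicate 2 it turned to 0.33 (0.818). With BPA replicate 3 and BPB replicate 3 both omitted, the BPA change was −2.53 (0.0208), the BPE adjusted p was 0.00277 and that of BPS 0.0145.

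The miR399 decoys IPS1 and AT4 were high in control, BPF and BPS and low in most libraries of BPA, BPB and BPE. IPS1 (AT3G09922, chr3:3050989-3051530) fell in BPE, from 378, 299 and 592 FPKM in the controls to 2.53, 3.23 and 58.9 FPKM. The log2 change was −5.40 ± 1.37 (SE; adjusted p = 0.0212), the largest of the 50 changes of these genes against control. The BPE groups did not overlap with control, and neither did BPA, at 68.2, 7.40 and 260 FPKM, or BPB, at 40.3, 3.61 and 278 FPKM. For BPA the log2 change of −2.93 had an adjusted p of 0.175 (0.0351 with control and BPA libraries alone, blocked by replicate number), and for BPB that of −3.44 had 0.0616. BPF was at 316, 641 and 300.2 FPKM and BPS at 406, 789 and 666 FPKM, both overlapping the controls. The BPE call was lost without BPE replicate 1 (adjusted p = 0.0962), BPE replicate 2 (0.0876), control replicate 1 (0.0611) or control replicate 3 (0.0953). The BPB change was called without BPA replicate 2 (0.0424), BPA replicate 3 (0.0467), BPE replicate 3 (0.0431) or BPB replicate 3 (−4.88, 0.00978). Leaving out BPA replicate 3 and BPB replicate 3 together gave −4.08 in BPA (0.0301) and an adjusted p of 0.00517 in BPB.

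AT4 (AT5G03545, chr5:894582-895517) was the most abundant of the 10 genes. Controls were close together, at 1557, 1446 and 1684 FPKM. BPF, at 1332, 1812 and 1881 FPKM, and BPS, at 1437, 2250 and 1734 FPKM, spread more widely around them. In BPE the libraries read 162, 251 and 920 FPKM, in BPA 564, 181 and 1217 FPKM, and in BPB 489, 156 and 1257 FPKM. All 9 of these values were below the lowest control, and replicate 3 was the highest in each of the 3 groups. The log2 changes were −2.22 in BPE, −1.64 in BPA and −1.77 in BPB, with adjusted p-values of 0.0569, 0.161 and 0.0743. The BPE change was called without BPA replicate 2 (0.0434), BPA replicate 3 (0.0405), BPB replicate 2 (0.0391), BPB replicate 3 (0.0323) or BPE replicate 3 (−2.95, 0.0243). The BPB change was called without BPB replicate 3 (−2.49, 0.0154). Omitting BPA replicate 3 and BPB replicate 3, BPA gave −2.28 (0.0283), BPB had an adjusted p of 0.00793 and BPE one of 0.0169.

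PHO1;H1 (AT1G68740, chr1:25812449-25816983), a PHO1 homologue that also loads phosphate into the xylem, was low in BPE and high in BPS, as SPX1 and SPX3 were. It read 14.1, 15.5 and 19.1 FPKM in the controls and 1.81, 1.89 and 6.29 FPKM in BPE, with a log2 change of −2.13 ± 0.68 (SE) and an adjusted p of 0.0496. That call sat at the threshold: leaving out any of 13 of the 18 libraries gave adjusted p-values of 0.0543 to 0.166, the exceptions being BPA replicates 2 and 3, BPB replicates 2 and 3 and BPE replicate 3. The 13 include all 3 control libraries (0.103, 0.0841 and 0.166 for replicates 1, 2 and 3), BPE replicate 1 (0.162) and BPE replicate 2 (0.151). BPS was at 45.0, 79.4 and 54.9 FPKM, all above the controls, with a log2 change of 1.79 and an adjusted p of 0.0763, called without BPA replicate 3 (0.0274) or BPB replicate 3 (0.0419). BPA read 5.76, 2.43 and 27.9 FPKM, BPB 13.0, 7.00 and 44.5 FPKM, and BPF 18.2, 36.7 and 32.6 FPKM. In the BPA and BPB groups the third library lay above every control and the other 2 below the lowest of them. Without BPA replicate 3 and BPB replicate 3, the BPA change was −1.83 (0.0144), BPB −0.69 (0.224), and the adjusted p 0.00319 in BPE and 0.00500 in BPS.

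PHO1 and PHO2 moved otherwise: both were lowest in the controls and highest in BPB, and BPA replicate 3 and BPB replicate 3 did not stand apart for them. PHO1 (AT3G23430, chr3:8387398-8393467), the xylem-loading exporter, rose in BPA, BPB and BPS. From 60.7, 74.1 and 45.4 FPKM in the controls it went to 257, 222 and 254 FPKM in BPB and to 161, 201 and 228 FPKM in BPS. The BPB and BPS libraries were all at least 161 FPKM and every control was at most 74.1 FPKM. The log2 changes were 2.03 ± 0.22 (SE; adjusted p = 2.05e-05) in BPB and 1.71 ± 0.22 (0.000214) in BPS, and neither call was lost on leaving out any 1 library. BPA, at 91.2, 137 and 103 FPKM, gave 0.87 ± 0.22 (0.0222), lost without control replicate 1 (0.0761), control replicate 3 (0.101) or BPA replicate 2 (0.120). BPE was at 85.7, 90.3 and 77.6 FPKM and BPF at 73.9, 92.2 and 128 FPKM, with log2 changes of 0.51 and 0.69 and adjusted p-values of 0.119 and 0.117.

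PHO2 (AT2G33770, chr2:14277558-14283113), the miR399 target, rose in 4 of the 5 compounds. Its controls read 37.6, 59.3 and 26.4 FPKM, the widest PHO2 set as a ratio of highest to lowest. BPB gave 111, 141 and 122 FPKM, with a log2 change of 1.65 ± 0.25 (SE; adjusted p = 0.000236), and BPS gave 66.6, 84.2 and 110.1 FPKM, with 1.11 ± 0.25 (0.00690). BPE, at 76.5, 96.2 and 81.2 FPKM, gave 1.09 ± 0.25 (0.0146), and BPA, at 79.4, 78.9 and 75.6 FPKM, 0.98 ± 0.25 (0.0257). In these 4 groups every library lay above every control. The BPB and BPS calls were not lost on leaving out any 1 library. The BPE call was lost without control replicate 1 (0.0511), control replicate 3 (0.0864) or BPE replicate 2 (0.0672), and the BPA call without control replicate 1 (0.0990), control replicate 3 (0.117), BPA replicate 1 (0.0557) or BPA replicate 2 (0.103). BPF, at 59.0, 50.3 and 85.4 FPKM, overlapped the controls (log2 change 0.69, adjusted p = 0.172).

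For PHO1 and PHO2 some whole-library values moved in the same direction. The median of all tested genes was 0.18 higher in BPB than in control on the log2 scale, and 0.09 higher in BPS, so the PHO1 and PHO2 changes in BPB are 1.85 and 1.46 above that shift under median scaling, with both calls kept. The summed level of the 10 photosynthetic markers ran from 75.5 to 179 FPKM in control, 276 to 575 in BPA, 699 to 1000 in BPB, 261 to 366 in BPE, 174 to 482 in BPF and 266 to 908 in BPS. None of these markers was at 0 in all libraries of a group. PHO1 and PHO2 were called in the groups whose sums were wholly above the control range, except for PHO1 in BPE. The part of shoot tissue in these results was not tested.

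For the starvation-responsive genes, the markers of root hairs, where PHT1 carriers act, and of the endodermis were set beside them. The 8 root hair markers summed to 527 to 748 FPKM in control, 164 to 241 in BPA, 62.6 to 235 in BPB, 287 to 311 in BPE, 251 to 378 in BPF and 219 to 376 in BPS. Sums were thus below control in every exposed library. Much of that sum was 1 gene, RHS2, whose mean fell from 380.0 FPKM in control to 33.4 FPKM in BPS. It was the 1 marker of 8 called there, where 8.71% of all tested genes were called lower. The median log2 change of the 8 in BPS was −0.14, and COBL9 had a mean of 25.5 FPKM against 18.3 FPKM in control (adjusted p = 0.374). The 6 endodermis markers summed to 227 to 232 FPKM in control, 189 to 285 in BPA, 190.0 to 352 in BPB, 167 to 221 in BPE, 304 to 363 in BPF and 322 to 393 in BPS. Of these 6, 4 were called higher in BPS, where 12.3% of all tested genes were, and 0 in the other compounds. The 6 stele markers, of the tissue where PHO1 acts, summed to 107.73 to 117 FPKM in control, 77.0 to 98.6 in BPA, 76.5 to 107.68 in BPB, 76.2 to 82.4 in BPE, 80.9 to 96.2 in BPF and 88.6 to 115 in BPS. Every library of BPA, BPB, BPE and BPF thus lay below every control. SUC2, a phloem sucrose carrier, was called lower in BPA, BPB and BPE (adjusted p = 0.0130, 0.00233 and 0.00818), and none of the other 5 was called in any compound. Of all tested genes 3.83%, 11.1% and 5.2% were called lower in BPA, BPB and BPE. The part of these cell types in the results was not tested.

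Compared with each other, the compounds differed most between BPS and BPE. Of the 100 tests of 10 genes in 10 pairs, 31 were called, 25 of them higher in the compound named first in the comparison and 6 lower, beside 15.8% of such tests over all genes. In BPS all genes but PHO2 were higher than in BPE, 9 of 10, where 39.4% of all genes were called and 20.8% were called higher. Mean FPKM was 80.1 times as high in BPS as in BPE for SPX3, 28.8 times for IPS1, 25.6 times for PHT1;5, 20.0 times for PHT1;4 and 17.9 times for PHO1;H1. On the log2 scale the difference was 5.54 for SPX3 (adjusted p = 0.00137), 5.96 for IPS1 (0.00382), 4.10 for PHT1;4 (0.000801) and 3.92 for PHO1;H1 (0.000702). PHO2, at 66.6 to 110.1 FPKM in BPS and 76.5 to 96.2 in BPE, differed by 0.02, with a 95% interval of −0.52 to 0.55. Leaving out 1 library kept 8 or 9 of these calls, AT4 being the one lost, without BPE replicate 1 (0.0864), BPE replicate 2 (0.0671) or BPS replicate 2 (0.0597).

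BPS also exceeded BPA in 7 genes, where 18.2% of all genes were called, 10.4% as higher. The 7 were PHT1;1, PHT1;4, PHT1;5, SPX1, SPX3, PHO1;H1 and PHO1, with log2 differences of 0.83 for PHO1 to 3.76 for SPX3 and adjusted p-values of 0.00867 to 0.0285. In a fit of the BPS and BPA libraries alone all 7 calls were lost (adjusted p = 0.0699 to 0.0875), where 0.0154% of all genes were called, and SPX3 was lost with a pseudocount of 0.1 (0.0610). The count also depended on single libraries: it was 0 without BPA replicate 1 (3.37% of all genes), 1 without BPA replicate 2 (2.98%) or BPS replicate 2 (4.35%), 4 without BPS replicate 3 (8.35%), and 9 without BPA replicate 3 (29.5%), when IPS1 (4.63, 0.0269) and AT4 (2.47, 0.0273) joined. BPF exceeded BPE in 6 genes, PHT1;1, PHT1;4, SPX3, IPS1, AT4 and PHO1;H1, at a background of 16% (6.64% higher). IPS1 differed by 5.36 (0.0220) and SPX3 by 4.24 (0.0215). That count fell to 0 without BPF replicate 2 (0.257% of all genes), to 1 without BPE replicate 1 (1.15%) or BPE replicate 2 (1.46%), and lay between 4 and 7 without any other 1 library. PHT1;4 was lost with quantile normalization (0.0514), and PHT1;4 and AT4 with no filter (0.0703 and 0.0741).

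BPB and BPE differed in 4 genes at a background of 31.3% (19.6% lower in BPE). PHT1;1 was 1.68 lower in BPE (0.000405), PHO1 1.52 lower (0.000261), PHO1;H1 2.14 lower (0.0280) and PHT1;4 2.08 lower (0.0419). The count was 2 without BPB replicate 3, BPE replicate 1 or BPE replicate 2, where 25.7%, 27.6% and 18.5% of all genes were called. The PHT1;4 call was lost as well with median scaling (0.0535), no filter (0.0594), and without control replicate 1 (0.0527), control replicate 3 (0.0502), BPB replicate 1 (0.0554), BPE replicate 3 (0.0646) or BPF replicate 3 (0.0507). PHO1;H1 was lost in a fit of the BPB and BPE libraries alone (0.0601). BPF was below BPB in PHO1 (by 1.34, 0.00110) and PHO2 (by 0.96, 0.0135) at a background of 28% (20.2% lower), and without BPB replicate 3 the call count was 6 (27.6% of all genes). Without BPB replicate 2 (11.9%) or BPF replicate 2 (13.2%) it was 1.

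Single calls remained in 3 pairs. PHO1 was 1.16 higher in BPB than in BPA (0.00573; background 9.94%, 5.53% higher), a call lost in a fit of those libraries alone (0.0503, where 1.5% of all genes were called), and the count was 2 without BPA replicate 3 (16.6%). PHO1 was 1.02 higher in BPS than in BPF (0.0227; background 3.04%, 1.05% higher), with counts of 0 without BPF replicate 1, BPF replicate 2, BPS replicate 2 or BPS replicate 3 and of 2 without BPS replicate 1, and the call was lost in a fit of those libraries alone (0.137). PHT1;5 was 1.51 higher in BPS than in BPB (0.0452; background 9.24%, 2.65% higher). That call was lost without any 1 of 11 libraries (control replicates 1 and 2, BPA replicate 1, BPB replicates 1 and 2, all 3 of BPE, BPF replicate 1 and BPS replicates 2 and 3; adjusted p = 0.0530 to 0.228), with no filter (0.0575), with a pseudocount of 0.1 (0.0682) and in a fit of those libraries alone (0.195). The count rose to 4 without BPA replicate 3 (11.6% of all genes) and to 7 without BPB replicate 3 (19.2%).

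BPE against BPA gave 0 calls (background 2.63%) and 1 gene, PHT1;1, at an unadjusted p below 0.05. PHT1;1 was 0.97 lower in BPE, with an adjusted p of 0.0528, and was called without BPB replicate 3 (0.0413), BPE replicate 3 (0.0370) or BPS replicate 1 (0.0461). BPF against BPA gave 0 calls as well (0.0667%), with 5 genes at an unadjusted p below 0.05. For both pairs the background is a share at the adjusted threshold. No share of all genes at the unadjusted one is given, so these genes cannot be set against it. In that pair PHT1;4, SPX1, SPX3, AT4 and PHO1;H1 had log2 differences of 1.67 to 2.46. With BPA replicate 3 and BPB replicate 3 both left out, 53 of the 100 pair tests were called (47 higher, 6 lower), beside 21.3% over all genes. These 53 held 9 calls between BPS and BPE (44.8% of all genes), 9 between BPS and BPA (33.9%), 8 between BPF and BPE (25.1%), 7 between BPF and BPB (30.8%) and 7 between BPS and BPB (23.1%). Another 5 were between BPF and BPA (6.42%), 4 between BPE and BPB (29.7%), 3 between BPS and BPF (8.1%), 1 between BPB and BPA (10.9%) and 0 between BPE and BPA (0.113%).

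**Figure D3:**
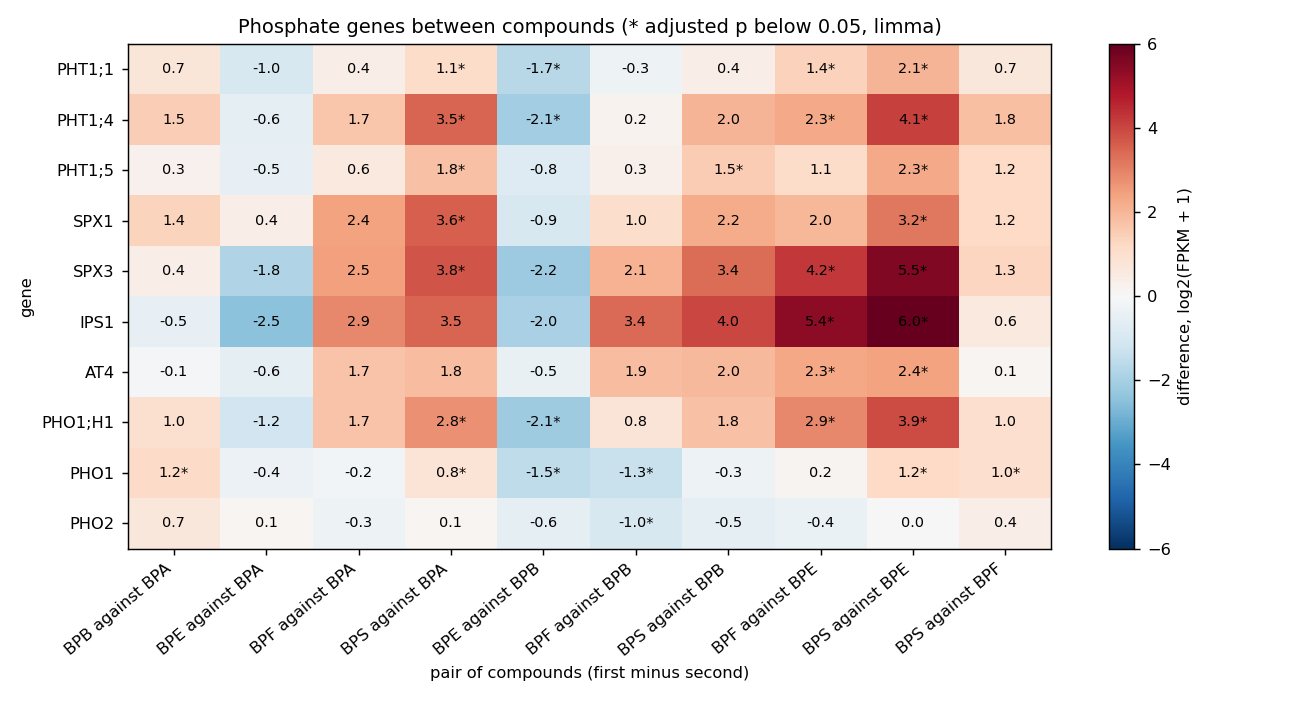
Difference between compounds on the log2(FPKM + 1) scale for each gene (rows) and pair (columns), red where the compound named first is higher and blue where it is lower; an asterisk marks an adjusted p below 0.05. The column for BPS against BPE holds 9 asterisks and the columns for BPE against BPA and BPF against BPA hold none.

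Ordered by the group mean of log2(FPKM + 1), BPE was the lowest group for 7 of the 10 genes, BPA for SPX1, and control for PHO1 and PHO2. BPS was the highest for 8 genes and BPB for PHO1 and PHO2. Of the 50 steps between neighbours in these orders, 1 was called, from BPA to BPS in PHO1 (0.83, adjusted p = 0.0187). That call was lost without BPA replicate 1 (0.0929), BPS replicate 2 (0.0694) or BPS replicate 3 (0.0710) and in a fit of those libraries alone (0.0871). Neighbouring groups otherwise did not differ beyond their spread in this fit, which does not show that they were alike.

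The wider phosphate pathway was read from lists of genes outside the 10. Among 13 enzymes induced by phosphate shortage, all tested, 5 were higher and 1 lower in BPS, 3 lower in BPE, 1 lower in BPA, 1 lower in BPB and 0 called in BPF, with median log2 changes of 1.92, −1.72, −1.21, −0.17 and 0.68. Of all tested genes, 12.3% were called higher and 8.71% lower in BPS. Lower calls made up 5.2% in BPE, 3.83% in BPA and 11.1% in BPB, and 1.39% were called in BPF. These shares moved when 1 library was left out, as set out for the 10 genes. MGD2, which makes galactolipids that replace phospholipids, rose in BPS, from 5.29, 5.10 and 7.89 FPKM to 26.1, 51.3 and 59.8 FPKM (log2 change 2.66, adjusted p = 0.0165). The phospholipase gene PLDP2 rose by 2.11 (0.0149) and the secreted acid phosphatase gene PAP10 by 0.88 (0.0161). MGD3, also a galactolipid synthase gene, and SQD2, which makes sulfolipid, rose in BPS as well (3.19, 0.0493, and 2.78, 0.0202), and these were chosen after their values were seen. So were the 3 that fell in BPE, the pyrophosphatase gene PPsPase1 (−3.96, 0.0217), the phosphatase gene PEPC1 (−3.81, 0.0419) and PAP12 (−1.14, 0.0327). RNS1, a ribonuclease gene, fell in BPS, where the list median rose. It was also called lower in BPA and BPB, where the list median was below 0 too. In BPB it dropped from 222, 120.3 and 152 FPKM to 2.52, 0.676 and 5.49 FPKM (−5.57, 2.08e-05). The BPS count of 6 enzymes was 1 without control replicate 2 or BPS replicate 2, 2 without control replicate 1 or BPS replicate 3, 11 without BPA replicate 3 and 12 without BPB replicate 3. With BPE replicate 1, BPE replicate 2, control replicate 1 or control replicate 3 omitted the BPE count of 3 became 0, and it was 1 without control replicate 2, 5 without BPA replicate 3 or BPB replicate 2 and 7 without BPB replicate 3. Among the enzymes that rose in BPS, the calls of MGD2, SQD2, PLDP2 and PAP10 were lost in 3 or 4 of 26 other fits (highest adjusted p = 0.0719, PAP10 without BPS replicate 2), on leaving out control replicate 1 or 2 or BPS replicate 2 or 3, and that of MGD3 in 19 (highest 0.134, without BPS replicate 2). In BPE the calls of PPsPase1, PAP12 and PEPC1 were lost in 4, 5 and 8 fits, with adjusted p-values of up to 0.104, 0.139 and 0.150 without control replicate 3. RNS1 kept its calls in all of these fits. In BPA and BPB the counts were 3 and 2 without their own replicate 3, and in BPF 1 without BPF replicate 1. In the fit that left out BPA replicate 3 and BPB replicate 3, 12 of the 13 enzymes were called lower in BPA, 5 in BPB and 11 in BPE, and in BPS 12 were called higher and 1 lower. Of all tested genes, 8.96% were then lower in BPA, 15.8% in BPB and 10% in BPE, and 16.5% were higher in BPS. Most of the enzymes were also high in the omitted libraries, so the lower calls in BPA and BPB follow in part from that choice.

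**Figure D4:**
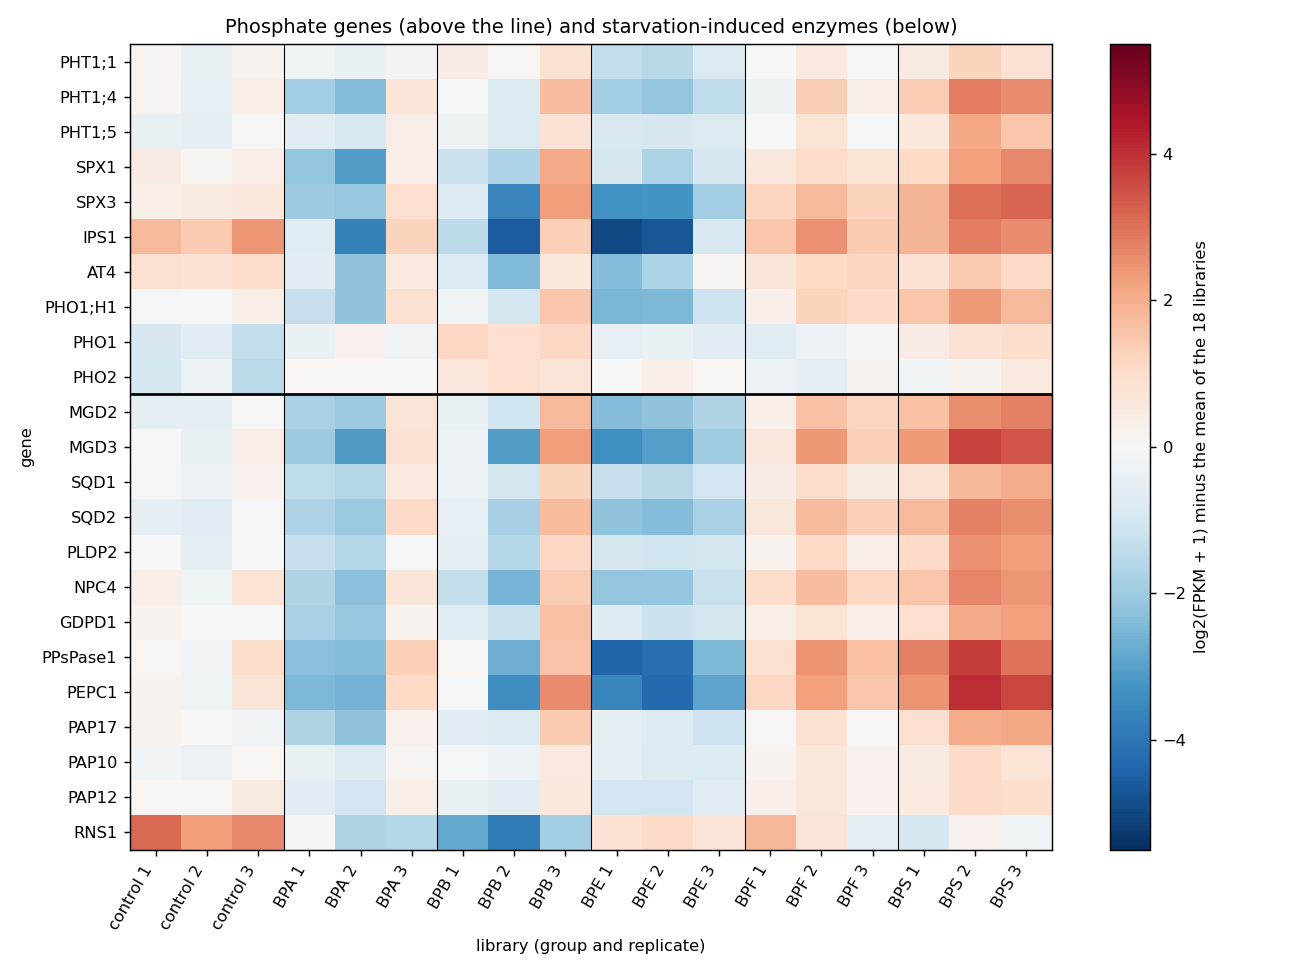
Level of the 10 phosphate genes (above the line) and 13 starvation-induced enzymes (below) in each of the 18 libraries, as log2(FPKM + 1) minus the gene's mean over all libraries, red above and blue below it. BPA replicate 3 and BPB replicate 3 are redder than their group mates in most rows, all 3 BPS libraries are red in most rows, and PHO1, PHO2 and RNS1 break the pattern.

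Of 13 other phosphate carriers, 11 were tested. Over all tested genes 21% were called in BPS, 14.3% in BPE, 36.6% in BPB, 10.4% in BPA and 1.39% in BPF. In BPS 3 were higher and 1 lower, in BPE 1 higher and 3 lower, in BPB 1 and 1, in BPA 0 and 1 (1 and 3 in the control and BPA fit blocked by replicate number), and in BPF 0 were called. The BPE count of 4 was 0 without control replicate 3, BPE replicate 1 or BPE replicate 2 and 2 without control replicate 1. The BPS count of 4 was 1 without control replicate 1 or BPS replicate 2 and 2 without control replicate 2 or BPS replicate 3. PHT1;2, the near copy of PHT1;1, fell in BPE from a mean of 84.5 to 29.0 FPKM (log2 change −1.53, adjusted p = 0.0134). The plastid carrier gene PHT2;1 rose in BPB (1.16, 0.00263). AT1G63010, annotated as a carrier of the major facilitator superfamily with an SPX domain, fell in BPB from 47.2 to 15.1 FPKM (−1.62, 4.97e-05). AT1G69480, annotated as an EXS family protein, rose in BPE (1.48, 0.0151). Both BPE calls, of PHT1;2 and AT1G69480, were lost without control replicate 3 (0.0782 and 0.0895), BPE replicate 1 (0.0616 and 0.0779) or BPE replicate 2 (0.0652 and 0.0664), and the BPB calls of PHT2;1 and AT1G63010 were not lost in any of 26 fits.

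Of 18 regulators, 17 were tested, beside the same shares of all genes as for the other carriers. BPE had 5 higher and 1 lower, BPS 1 and 1, and BPA, BPB and BPF 1 higher each (in BPA 3 higher and 2 lower in that blocked fit, where 20.1% of all genes were called). The BPE count of 6 was 1 without control replicate 3, 2 without BPE replicate 2 and 3 without BPE replicate 1, and the BPS count of 2 was 1 without any 1 control library, BPS replicate 1 or BPS replicate 2. Counts in the other compounds lay between 0 and 3 on leaving out 1 library. PHR1, the transcription factor behind the starvation response, fell in BPS, from a mean of 41.1 to 28.3 FPKM (log2 change −0.52, adjusted p = 0.00435). WRKY6, a factor that represses PHO1, rose in BPE from 33.4 to 87.4 FPKM (1.38, 0.00587). WRKY45, a factor that activates PHT1;1, rose in BPE by 1.10 (0.00918), and ALMT1, which lets malate out of the root tip, rose in BPB by 1.91 (0.00824). The WRKY45 call was lost without control replicate 3 (0.0573), and those of PHR1, WRKY6 and ALMT1 in none of the 26 fits.

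Of 7 miR399 and miR827 precursor loci, 3 reached a mean of 1 FPKM. MIR399C rose in BPS, from 1.41, 1.43 and 0.921 FPKM to 2.96, 9.07 and 8.72 FPKM (log2 change 1.70, adjusted p = 0.0310), a call lost with a pseudocount of 0.1 (0.206) and without control replicate 1 (0.0742), 2 (0.0644) or 3 (0.0872) or BPS replicate 2 (0.110) or 3 (0.1003). MIR399B fell in BPB, from 4.75, 1.61 and 4.28 FPKM to 1.40, 0.403 and 0.409 FPKM (−1.35, 0.00907). In the same limma fit MIR399B was also called lower in BPA (−1.27, adjusted p = 0.0390), where the libraries overlapped the controls, and in BPE (−1.15, 0.0469). MIR827 stood at 2.09 to 4.11 FPKM in control and 5.10 to 14.3 FPKM in BPS (1.23, 0.129). These are levels of the precursor loci in messenger RNA libraries, and mature miRNAs were not measured.

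Motif shares differed between these lists. Within 500 bases upstream, P1BS was present for 7 of the 13 enzymes, 6 of the 7 precursors, 5 of the 13 other carriers and 4 of the 18 regulators.

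The genes most like each member were those with the smallest mean absolute difference in centred log2(FPKM + 1) over the 18 libraries. For PHT1;4 and PHO1;H1 the closest gene was MGD2, at 0.31 for both. Next came AT1G23110 (0.33) and PHO1;H1 (0.35) for PHT1;4, and AT1G23110 (0.31) and AT4G23000 (0.34) for PHO1;H1. SPX3 was closest to MGD3 (0.36), OCT1 (0.41) and PEPC1 (0.46), and SPX1 to AT3G57157 (0.32), GDPD1 (0.34) and AT5G20790 (0.36). For IPS1 the nearest gene was SPX3, at 0.91, the poorest match of the 10, followed by PPsPase1 (0.96) and AT5G04120 (0.98). AT4 was nearest to AT2G43535 (0.25), UMAMIT26 (0.31) and NSP3 (0.35), none of them in the lists above. PHT1;5 was nearest to AT1G22170 (0.16), AT2G03370 (0.18) and PFA-DSP2 (0.21). The genes nearest to PHT1;1 were AT1G72430 (0.15), SYP123 (0.18), a syntaxin of root hairs, and AT4G22460 (0.19). PHO1 was nearest to HCEF1 (0.16), a chloroplast fructose bisphosphatase gene, AT5G12900 (0.17) and PLL2 (0.18), and PHO2 to AT2G23390, AT1G15740 and AT4G29890 (0.15, 0.15 and 0.16).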

How the data were processed

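RNA from roots was made into strand-specific messenger RNA libraries and sequenced on a HiSeq instrument, per the labels' protocols. The authors deposited 1 table of FPKM per library, per the file headers, and the submitters' processing notes name HISAT2 2.0.4, StringTie 1.3.0, edgeR and the build TAIR10 without their roles. Read counts were not used here, so no count test was run. Values were analysed as log2(FPKM + 1), which understates changes of low genes, for loci with a mean of at least 1 FPKM. The 6 group means were estimated in limma 3.58.1 (R 4.3.3, intensity trend) from the 18 libraries together, and p-values are two-sided and Benjamini-Hochberg adjusted over the 19484 genes within each of 15 comparisons. The code was tested on simulated data. Fragment totals came from the step between values below 2.0 FPKM.

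The 10 genes and all lists were chosen with earlier results of these data known. From each list outside the 10, up to 4 genes with the smallest adjusted p against control were named, and for each of the 10 the 3 most similar genes. Coordinates and sequences come from TAIR10.1 (RefSeq), since the files carry none. The labels name no batch. Same-numbered control and BPA libraries deviated together (r = 0.295, 0.296 and 0.419), which no other pair of groups did for all 3 numbers, so a fit of these 6 libraries with the replicate number as a block was added and its values stand where they change a call or a count.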

Additional observations from a re-analysis of the deposited data

How the results depend on the processing

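The 10 genes were refitted with quantile normalization, median scaling, no intensity trend, no filter on low values, a pseudocount of 0.1, a replicate block, only the libraries compared, each library left out in turn, PHT1;1 to PHT1;3 summed, and, added after seeing the data, BPA replicate 3 and BPB replicate 3 left out. The number called moved by over 1.5 times in these fits. With the replicate block it was 4 in BPB (2 higher, 2 lower), where 37.4% of all genes were called, against 36.6%. With only the libraries compared it was 1 in BPA (13.1% of all genes, against 10.4%) and 8 in BPE (25.4%, against 14.3%), and 23 over the pairs (9.31%, against 15.8%). Without BPA replicate 3 and BPB replicate 3 it was 8 in BPA, 6 in BPB, 8 in BPE, 8 in BPS and 53 over the pairs. Leaving out 1 library gave 0 to 4 in BPA, 2 to 5 in BPB, 0 to 7 in BPE, 0 to 0 in BPF, 2 to 6 in BPS and 20 to 42 over the pairs, where 1.26% to 15.5%, 25.6% to 39%, 2.3% to 18%, 0.128% to 3.21%, 11.8% to 23.7% and 10.6% to 18.9% of all genes were called. The cause was not tested.

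The changes whose sign turned in any of these fits were not called with all libraries. PHO1;H1 in BPB, at 0.01, went to −0.11 with quantile normalization, −0.17 with median scaling, −0.01 (−0.0126) with a pseudocount of 0.1, and −0.69 without BPA replicate 3 and BPB replicate 3, where PHT1;4 and PHT1;5 in BPB were −0.48 and −0.21. Leaving out 1 library gave, in BPB, −0.69 to 0.56 for PHO1;H1, −0.48 to 0.77 for PHT1;4, −0.21 to 0.56 for PHT1;5, −1.74 to 0.14 for SPX1 and −2.64 to 0.33 for SPX3, in BPA −0.41 to 0.22 for PHT1;5, and in BPF −0.00661 to 0.30 for PHT1;1, −0.0213 to 0.81 for PHT1;4, −0.00575 to 0.24 for AT4 and −0.40 to 0.23 for IPS1. The PHO1;H1 call in BPE was also lost with quantile normalization (adjusted p = 0.0547), no trend (0.0507) and no filter (0.0734), the PHT1;4 call in BPS with no filter (0.0606), and, with only the libraries compared, PHO2 in BPA (0.0502) and PHT1;1 in BPS (0.0534). The fit of only the libraries compared also gained calls. In BPE it called PHT1;4 (0.00353), SPX1 (0.00399), SPX3 (0.00180) and AT4 (0.0241) lower. In BPS it called SPX1 (0.0230), SPX3 (0.00612) and PHO1;H1 (0.00316) higher. Median scaling called SPX3 lower in BPE (0.0458). PHO1 and PHO2 in BPB and BPS were called in every fit.

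Apart from control with BPA, the replicate numbers were not taken to pair the libraries, since in no other pair of groups did all 3 numbers correlate over 0.1: deviations of same-numbered libraries correlated from −0.57 to 0.65 over 45 pairs, 15 of them over 0.1, and 12 of 18 libraries correlated best with one of their own number, a hint from the data. The block over all libraries called IPS1 and AT4 in BPB (adjusted p = 0.0279 and 0.0354), SPX3 and AT4 in BPE (0.0291 and 0.0291) and PHO1;H1 in BPS (0.0311), brought MIR827 in BPS under 0.05 (0.0397), and took the starvation-induced enzymes called from 3 to 5 in BPE and from 6 to 10 in BPS. Over the pairs it called 37, the 6 gained being IPS1 and AT4 in BPS against BPA (0.0419 and 0.0481) and in BPF against BPB (0.0388 and 0.0379), and SPX3 and IPS1 in BPS against BPB (0.0425 and 0.0465). In the control and BPA libraries alone, the block gave 3 called in BPA (20.1% of all genes). With 3 libraries a group, the median 95% interval of a log2 change was ±0.40 over all tested genes, and wider for each of the 10.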
